A study of Rattus norvegicus with 8 samples.

Results

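The transcripts of 6 genes of complement, microglia and antigen presentation were followed in the rat brain over a single exposure to the volatile anaesthetic isoflurane. The genes were C3, C1qb, Cd74, Itgam, Il18 and B2m. All probe sets that the platform's annotation assigned to 1 of these symbols alone were taken, which gave 12 of the 8799 probe sets of the array and 6 of its 4736 named genes. The genes were selected on readings of these same arrays, since the differences of C3, Cd74, Itgam and Il18 after 2 hr had been seen before the set was drawn up. Which values led to C1qb and B2m is not recorded in the sources used here. The values of these genes for 2 hr against control are therefore given as a description, and no p-value is given for them.

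RNA of whole brain was measured on 8 arrays, 1 per sample. Control rats (n = 3) were intubated, breathed isoflurane for 3 min and were then perfused at once with cold saline. Rats of the 1 hr group (n = 2) and of the 2 hr group (n = 3) were intubated and received 2% isoflurane for that time, and the labels mention no perfusion for them. The labels name no strain, sex or age, and no group without isoflurane was analysed here. The control is thus itself a brief exposure, and exposure time and perfusion cannot be told apart. The labels speak of 1 rat per sample but give no animal numbers, so p-values cover only the variation from sample to sample, which may be partly technical.

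Complement is a cascade of plasma and tissue proteins that tags surfaces for removal. C1q, whose B chain is encoded by C1qb, starts its classical pathway, and C3 is the component on which all its pathways meet. In the brain C1q comes mainly from microglia, the resident macrophages, and fragments of C3 are bound by complement receptor 3, whose alpha chain CD11b is encoded by Itgam. Cd74 encodes the invariant chain that escorts class II molecules of the major histocompatibility complex (MHC), B2m the light chain of class I molecules, and Il18 a cytokine of the interleukin 1 family that is made as an inactive precursor and cut by caspase-1.

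Promoter windows of 3 of the genes are shown because C3 and Cd74 had the highest readings over control after 2 hr and B2m read far above the floor on every array with little spread. They were taken from RefSeq (assembly GRCr8), whose table held all 6 genes, and run 5′ to 3′ from 250 bases before to 50 bases after the start of the gene. The C3 window lies at chr9:2201290-2201589 on the minus strand, the Cd74 window at chr18:56526956-56527255 on the plus strand and the B2m window at chr3:129549080-129549379 on the plus strand. Capitals mark the letters of 4 short motifs searched on both strands, namely the CCAAT box (CCAAT), a C/EBP-like motif (TTNNGNAAT), an interferon response-like motif (GAAANNGAA) and a gamma-activated-like motif (TTCNNNGAA).
C3: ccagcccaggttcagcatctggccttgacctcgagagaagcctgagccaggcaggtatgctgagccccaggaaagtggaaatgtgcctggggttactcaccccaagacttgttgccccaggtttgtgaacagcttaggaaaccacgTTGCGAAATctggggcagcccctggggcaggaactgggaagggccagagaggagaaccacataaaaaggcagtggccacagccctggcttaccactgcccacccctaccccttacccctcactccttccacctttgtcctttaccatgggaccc
Cd74: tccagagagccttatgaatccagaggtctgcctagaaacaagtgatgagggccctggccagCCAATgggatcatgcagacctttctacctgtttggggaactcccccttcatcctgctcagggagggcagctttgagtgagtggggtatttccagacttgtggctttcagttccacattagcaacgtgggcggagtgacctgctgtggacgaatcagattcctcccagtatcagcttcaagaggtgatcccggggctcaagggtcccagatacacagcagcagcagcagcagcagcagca
B2m: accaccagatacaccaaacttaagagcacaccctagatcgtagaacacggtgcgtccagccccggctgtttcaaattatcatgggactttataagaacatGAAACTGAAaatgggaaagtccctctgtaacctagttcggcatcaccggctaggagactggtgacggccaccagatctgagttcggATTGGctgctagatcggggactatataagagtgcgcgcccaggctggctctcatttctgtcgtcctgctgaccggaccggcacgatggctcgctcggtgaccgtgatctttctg
The C3 window held the C/EBP-like motif at bases 147 to 155 of the window, a match found in 12.3% of the 33469 promoter windows of the same length in the table. CCAAT was present in the Cd74 window at bases 62 to 66 and, on the opposite strand, in the B2m window at bases 187 to 191, and 37.5% of all windows held it. The interferon response-like motif stood at bases 101 to 109 of the B2m window and in 9.71% of all windows. Of the windows not printed, that of Itgam held the gamma-activated-like motif, found in 8.87% of windows, and those of C1qb and Il18 held none of the 4. The capital runs printed above do not overlap. These are matches of letters and nothing was measured about binding.

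The deposited values are intensities on a linear scale. Intensities of 9.1 or less, the lowest 20 percent of all values, are called near background here and were set to that floor before log2 was taken. Of the 96 member values 16 were near background, and 44 lay at or below the 40th percentile of 27.9. All 12 probe sets passed the filter on low values, and 4 of them were above the floor on all 8 arrays. Some arrays stood apart. The highest intensity was above 20000 on control replicate 3, 1 hr replicate 1 and 2 hr replicate 3, and the array's own 5S ribosomal RNA control read 13.1 on 2 hr replicate 1 and 23.7 and 12.9 on control replicates 1 and 2, against 70.4 to 141.7 elsewhere. Control replicate 3 also had the lowest summed neuron markers, at 6114.5 against 8302.1 to 12711.9 on the other arrays. The tissue label fitted its markers, with 13 of 14 neuron, 8 of 9 astrocyte and 8 of 9 oligodendrocyte markers above the floor on all arrays. The 9 microglia and macrophage markers on the array were above it on all arrays too.

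In limma's test across all 7770 probe sets, adjusted with Benjamini-Hochberg at a threshold of 0.05, 0% passed in 1 hr against control, in 2 hr against control or in 2 hr against 1 hr, and nothing is read from this for the 12 probe sets in 2 hr against control. In 1 hr against control and in 2 hr against 1 hr 0 of the 12 were called. Both comparisons share a group with the selection, so nothing is read from this for the 12 either. At an unadjusted p under 0.05 there were 208, 139 and 215 of all probe sets in these 3 comparisons. The groups did not overlap, with 2 hr higher than control, for 4 of the 12 probe sets, against 2.90% of all tested. These were 1 probe set each of C3, Cd74, Itgam and Il18, and since the genes were selected on this comparison nothing is read from the count. All 12 probe sets had a positive difference at 2 hr, against 52.3% of all tested. Their median was 0.77 on the log2 scale, beside a median of 0.02 over all probe sets. Nothing is read from these values either, since they follow the selection and several of the probe sets read the same gene.

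**Figure D1:**
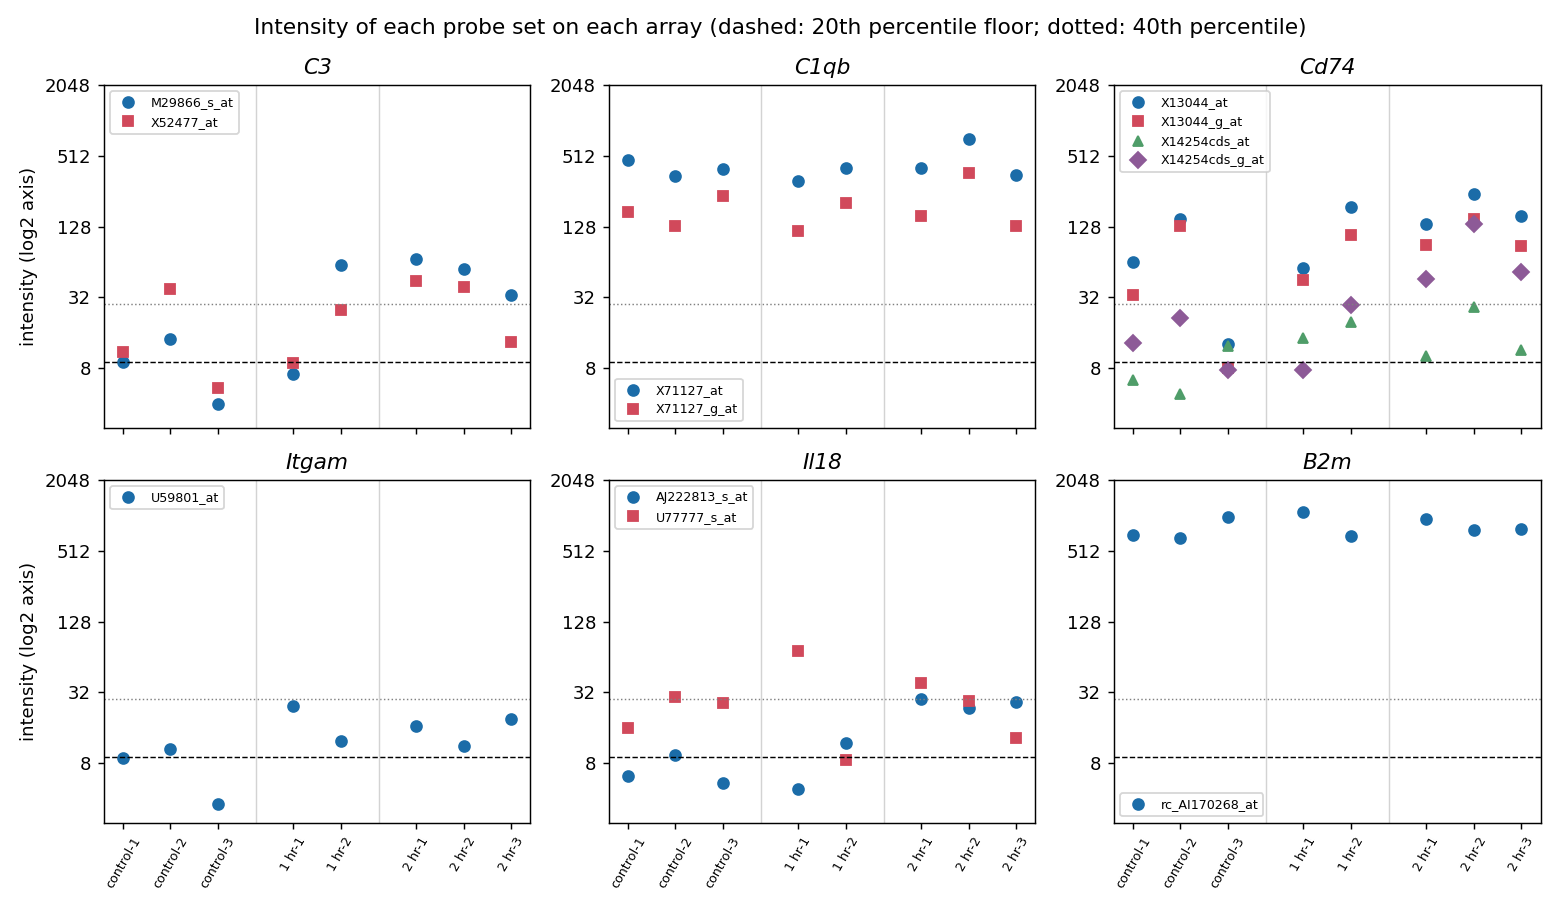
Intensity (log2 axis) of the 12 probe sets on the 8 arrays, 1 panel per gene, with the arrays in the order control, 1 hr and 2 hr. Points are single arrays, the dashed line is the floor of 9.1 and the dotted line the 40th percentile of 27.9. C1qb and B2m sit far above both lines in every group, whereas C3, Itgam and Il18 lie near them.

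C3 was read by 2 probe sets, and both were dim in controls. M29866_s_at read 9, 14.3 and 4 in controls, 7.2 and 60.1 after 1 hr, and 67.5, 55.3 and 33.5 after 2 hr. The 2 hr arrays all lay above the controls, while the 1 hr arrays split, 1 near background and 1 at the level of the 2 hr arrays. On the log2 scale the 2 hr mean was 5.64 ± 0.52 and the control mean 3.40 ± 0.38 (SD, n = 3 each), a difference of 2.24 or 4.73-fold. Because 2 of 3 controls sat at the floor, the size rests on it: it was 0.84 under a floor at the 40th percentile, and 2.02 to 2.53 with 1 control or 2 hr array left out at a time. The second probe set, X52477_at, read 11.1, 37.6 and 5.4 in controls, 8.8 and 25.1 after 1 hr, and 44, 39.3 and 13.3 after 2 hr. Here control replicate 2 lay within the range of the 2 hr arrays, and the difference at 2 hr was 0.87. With single arrays left out this was 0.48 without control replicate 3, 0.55 without 2 hr replicate 1, 1.5 without control replicate 2 and 1.41 without 2 hr replicate 3, and it was 0.24 under a 40th percentile floor.

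The C3 readings also differed between the arrays that stood apart and the rest. Within each group the array with a highest intensity above 20000 had the lowest C3 reading on both probe sets. For M29866_s_at the 2 hr difference was 1.88 within these arrays (1 against 1) and 2.42 within the others (2 against 2). Split by the 5S reading it was 2.56 within the arrays of low reading (1 against 2) and 2.24 within the others (2 against 1). C3 was selected on this comparison, so the sign of these values is given as a description. After 1 hr M29866_s_at was 1.14 above control (SE 0.735, adjusted p = 1 in limma), a value that was 2.51 without 1 hr replicate 1 and -0.22 without 1 hr replicate 2. X52477_at differed by -0.05 (SE 0.768).

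Choroid plexus tissue, which can enter a whole brain dissection in varying amounts, was followed by its own markers beside C3. Ttr, the transthyretin gene that marks this tissue, read 294.2, 123.5 and 81.4 in controls, 200.5 and 3408.9 after 1 hr, and 313.7, 320.5 and 124.1 after 2 hr. The single high reading was on 1 hr replicate 2, the 1 hr array with the high C3 value. Of the 14 choroid plexus and ependymal markers 10 were on the array, and their summed intensity was 978.1 to 1347 in controls, 1285.4 to 4674.6 after 1 hr and 1079.8 to 2079.9 after 2 hr. The sum of 4674.6 was on 1 hr replicate 2, and Ttr alone gave 3408.9 of it. It is thus mostly a reading of 1 gene, and no sum without Ttr was taken. Kcnj13, another marker of this tissue, was near background on 7 of the 8 arrays, with 22.3 on 2 hr replicate 3. The part of this tissue in the C3 readings was not tested.

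C1qb lay far above the floor in every sample and its groups overlapped. X71127_at read 467.4, 347.3 and 397.5 in controls, 315.4 and 402.2 after 1 hr, and 401, 708.2 and 348.9 after 2 hr. One array, 2 hr replicate 2, was above all others, and X71127_g_at was highest on the same array, at 366.8 against 117 to 232.5 elsewhere. The log2 mean of X71127_at was 8.85 ± 0.54 after 2 hr (SD, n = 3) and 8.65 ± 0.21 in controls (SD, n = 3), a difference of 0.21, which was -0.10 without 2 hr replicate 2. For X71127_g_at the 2 hr difference was 0.18, and -0.27 without that array. After 1 hr the differences were -0.17 for both, with 95% intervals of -0.95 to 0.61 and -1.24 to 0.91 (limma, adjusted p = 1 for each).

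C1qc, which encodes another chain of the same C1q molecule, was on the list of related genes and can be set beside C1qb. It read 229.6, 203.9 and 244.6 in controls, 184.9 and 190 after 1 hr, and 217.3, 245.4 and 179.3 after 2 hr (rc_AA891576_s_at). Its highest 2 hr reading was on 2 hr replicate 2, as for C1qb, but there it stood at the level of control replicate 3. Both 1 hr arrays were below all controls for C1qc, and the difference of -0.27 (SE 0.267) did not pass in limma (adjusted p = 1).

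Itgam was represented by U59801_at alone and was close to background throughout, with no reading above the 40th percentile. It read 8.8, 10.6 and 3.6 in controls, 24.6 and 12.3 after 1 hr, and 16.7, 11.3 and 19.2 after 2 hr. Every exposed array lay above every control, although the lowest 2 hr reading, 11.3, and the highest control reading, 10.6, were close, and 2 of 3 controls sat at the floor. The difference was 0.68 after 2 hr and 0.86 (SE 0.390, adjusted p = 1 in limma) after 1 hr. Between 2 hr and 1 hr it was -0.18 (SE 0.390). With a pseudocount of 16 in place of the floor the 2 hr difference was 0.43, and under a floor at the 5th percentile 1.14. It was 1.08 within the arrays of highest top values (1 against 1) and 0.48 within the others (2 against 2).

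Itgb2, which encodes the other chain of complement receptor 3, was on the lists of related genes, but no probe set carried its symbol alone. Other surface and cytoplasmic markers of microglia and macrophages gave no common direction. Cx3cr1, a chemokine receptor of microglia, read 45 to 53.7 in controls, 48.5 and 80.4 after 1 hr, and 26.1 to 51.5 after 2 hr. Aif1, the gene of the microglial protein Iba1, read 27.7 to 131.4 in controls, 41.8 and 77.3 after 1 hr, and 61.4 to 83.7 after 2 hr. The groups of both genes overlapped.

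Cd74, the gene of the invariant chain, had 4 probe sets, and their readings varied widely among the controls. X13044_at read 64.2, 147.2 and 12.9 in controls, 56.9 and 187.8 after 1 hr, and 133.8, 241.7 and 158.9 after 2 hr. Control replicate 3 was far below the others, and control replicate 2 lay within the 2 hr range, so these groups overlapped. The log2 mean was 7.43 ± 0.44 after 2 hr (SD, n = 3) and 5.63 ± 1.79 in controls (SD, n = 3), a difference of 1.80 or 3.48-fold. Without control replicate 3 it was 0.83. It was 3.62 within the arrays of highest top values (1 against 1, the control being replicate 3) and 0.89 within the others (2 against 2). Within the arrays of low 5S reading (1 against 2) it was 0.46, and within the others (2 against 1) 3.93. X13044_g_at followed the same pattern, with a difference of 1.63 after 2 hr that was 0.68 without control replicate 3.

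The other 2 Cd74 probe sets differed from this pattern. X14254cds_g_at read 13.1, 21.4 and 7.7 in controls, 7.7 and 27.7 after 1 hr, and 45.5, 133.8 and 52.7 after 2 hr. All 2 hr arrays were above all controls and above both 1 hr arrays. The 2 hr mean exceeded the control mean by 2.32 on the log2 scale, 5.01-fold, and by 2.03 without control replicate 3, but by 1.30 under a 40th percentile floor. X14254cds_at stayed dim, from 4.8 to 26.4 over the 8 arrays, and differed by 0.53 after 2 hr, which was 0.11 without 2 hr replicate 2 and 1.01 under a 5th percentile floor. After 1 hr it differed by 0.75 (SE 0.440, adjusted p = 1 in limma). After 1 hr the difference of X13044_at was 1.06 (SE 0.896, adjusted p = 1 in limma), and 0.09 without control replicate 3. That of X14254cds_g_at was 0.22 (SE 0.677, adjusted p = 1 in limma).

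Class II genes, whose products the invariant chain escorts, were followed on their own probe sets. Of 16 listed genes 12 were on the array and 11 tested, of which 7 were above and 4 below control after 2 hr and 0 passed in limma, with a median log2 difference of 0.13 beside 0.02 over all probe sets. RT1-Db1, a class II beta chain, read 50.1, 79.9 and 76 after 2 hr, against 38.3, 51 and 28.8 in controls, a difference of 0.81 (SE 0.470). RT1-Da, a class II alpha chain, read 108.1, 239.4 and 137.3 after 2 hr, against 65.2, 107.7 and 136.9 in controls, a difference of 0.63 (SE 0.410). The groups overlapped for both. RT1-DMa and RT1-DMb, which load peptides onto class II molecules, differed by 0.36 (SE 0.364) and 0.27 (SE 0.341). After 1 hr the median of the list was 0.02 beside 0.05 over all probe sets, and 6 genes were above and 5 below control.

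Il18 was read by 2 probe sets that disagreed. AJ222813_s_at read 6.2, 9.4 and 5.4 in controls, 4.8 and 11.8 after 1 hr, and 28.4, 23.6 and 26.6 after 2 hr. The 2 hr arrays were close together and lay above all other arrays, most of which were near background. The log2 mean was 4.71 ± 0.14 after 2 hr and 3.20 ± 0.03 in controls (SD, n = 3 each), where 2 of 3 controls sat at the floor and so understate the spread. The difference of 1.51 or 2.84-fold was 1.55 within the arrays of highest top values (1 against 1) and 1.49 within the others (2 against 2), and 1.62 and 1.46 in the split by 5S reading (1 against 2 and 2 against 1). It was 0.88 with a pseudocount of 16 and 1.94 under a 5th percentile floor. The probe set was no longer tested under the floor at the 40th percentile, which only 1 array exceeded.

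The second Il18 probe set, U77777_s_at, read 16.1, 29 and 26 in controls, 72.1 and 8.5 after 1 hr, and 38.8, 26.8 and 13.2 after 2 hr. Its highest and its lowest reading were both in the 1 hr group, and its difference after 2 hr was 0.06. On 1 hr replicate 1 it read 72.1 where AJ222813_s_at read 4.8. Which of these probe sets follows the Il18 transcript in brain cannot be told from the intensities. After 1 hr the differences were 0.17 (SE 0.308) for AJ222813_s_at and 0.16 (SE 0.825) for U77777_s_at, with an adjusted p of 1 in limma for each.

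The other genes of the interleukin 1 family and the caspase-1 pathway numbered 12 on the array, and 11 were tested. After 2 hr 5 were above and 6 below control and 0 passed in limma, with a median of -0.05. Il1a, which encodes interleukin 1 alpha, read 54.8, 57.6 and 38 after 2 hr, against 89.4, 84.3 and 67.2 in controls, a difference of -0.69 (SE 0.488) with no overlap. Il1b, which encodes interleukin 1 beta, read 14.6, 17 and 29.8 after 2 hr, against 28.8, 26.6 and 43.8 in controls, a difference of -0.73 (SE 0.418) with an overlap. After 1 hr both read below all controls, Il1a by a log2 difference of -1.18 (SE 0.546) and Il1b by -1.08 (SE 0.468), and neither passed in limma (adjusted p = 1 for each). Il1rl2, which encodes a receptor of the family, read 49 and 119.3 after 1 hr, against 31.9, 29.3 and 31.2 in controls, a difference of 1.31 (SE 0.592, adjusted p = 1 in limma). Of the 11 genes 8 were above and 3 below control after 1 hr, with a median of 0.27 beside 0.05 over all probe sets. Casp1, which encodes the enzyme that cuts the Il18 precursor, read 105.7, 94.2 and 61.5 after 2 hr, against 33.9, 109.1 and 94.5 in controls. The interferon gamma gene Ifng differed by -0.96 (SE 0.477) and its receptor gene Ifngr1 by 0.95 (SE 0.558) after 2 hr. Ifng read 19.8, 16.6 and 4.8 after 2 hr, against 17.2, 29.2 and 43.4 in controls. Ifngr1 read 17.8, 49.2 and 14.3, against 20.9, 3.6 and 6.7. Both had readings near background, so the size of these differences depends on the floor.

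B2m gave the tightest readings of the 6 genes. rc_AI170268_at read 695.3, 660.2 and 985.1 in controls, 1085.6 and 685.4 after 1 hr, and 951.9, 775.8 and 778.8 after 2 hr. The highest intensity over the 8 arrays was 1.64 times the lowest, and the 3 groups overlapped. The log2 mean was 9.70 ± 0.17 after 2 hr and 9.58 ± 0.31 in controls (SD, n = 3 each), a difference of 0.12. After 1 hr the difference was 0.17 with a 95% interval of -0.59 to 0.92 (limma, adjusted p = 1). A further probe set carried B2m among several gene symbols, ribosomal RNA among them, and was left out.

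Genes of MHC class I and of peptide loading, the partners of B2m, gave 17 tested genes. After 2 hr 6 were above and 11 below control and 0 passed in limma, with a median log2 difference of -0.20. Psmb8, an inducible subunit of the proteasome that makes peptides for class I, read 69, 81.6 and 15.6 after 2 hr, against 114, 73.1 and 137.2 in controls, a difference of -1.23 (SE 0.597). Psme1 and Psme2, which encode the subunits of a proteasome activator, differed by -1.06 (SE 0.444) and -0.72 (SE 0.395). Canx, a chaperone of class I heavy chains, differed by 0.96 (SE 0.617). Of the class I heavy chain genes RT1-CE12 differed by 0.17 (SE 0.253) and RT1-CE16 by 0.34 (SE 0.270), and such genes are near-identical copies whose probe sets may read one another.

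**Figure D2:**
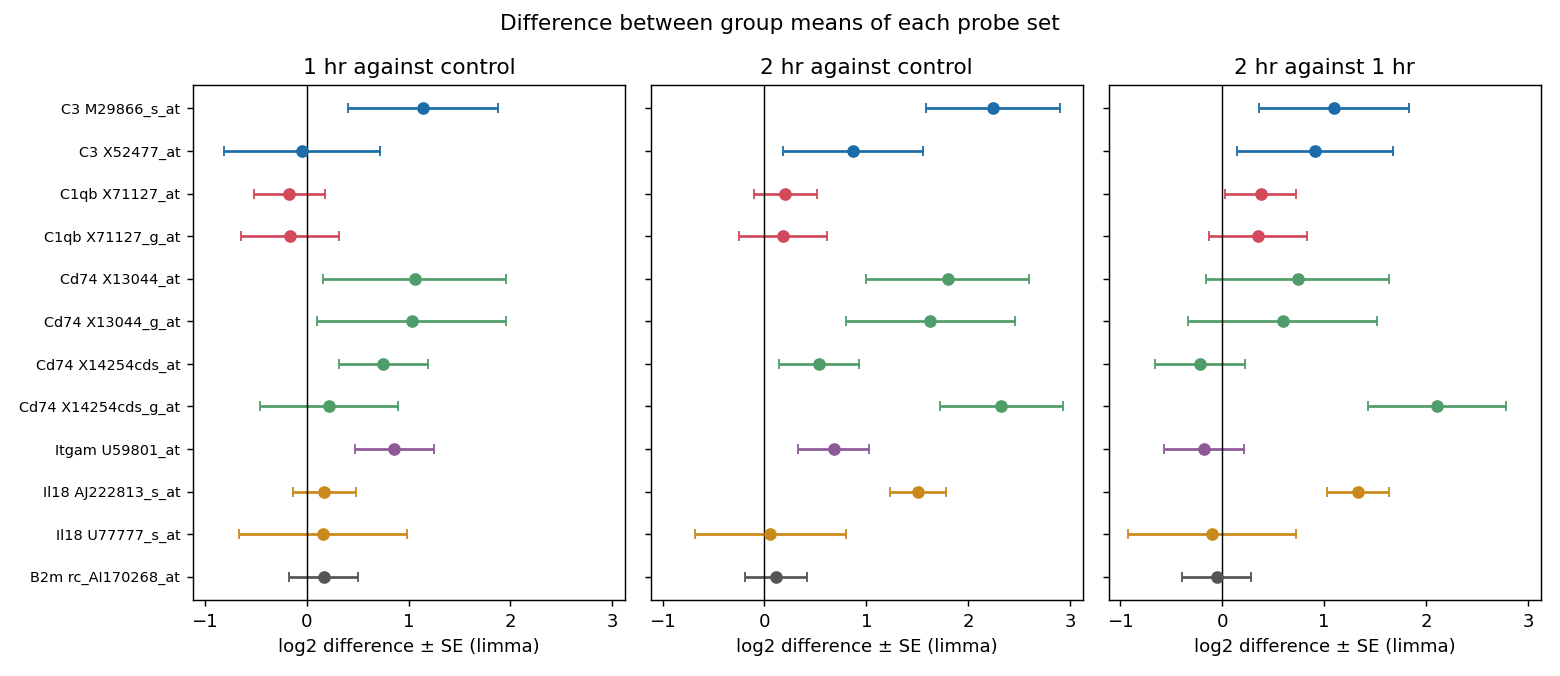
Log2 difference between group means of each of the 12 probe sets with its standard error from limma, for 1 hr against control, 2 hr against control and 2 hr against 1 hr. Cd74 X14254cds_g_at has differences of 2.32 and 2.11 and Il18 AJ222813_s_at of 1.51 and 1.33 in the comparisons of the 2 hr group, which share the 2 hr arrays that the genes were selected on. B2m lies between -0.05 and 0.17 in all 3.

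Set against 1 hr, the 2 hr group was higher on 8 of the 12 probe sets and lower on 4, with a median log2 difference of 0.49 beside -0.03 over all probe sets. This comparison shares the 2 hr arrays on which the genes were selected. The groups did not overlap, with 2 hr higher, for 2 probe sets, against 5.98% of all tested, and 0 lay lower without overlap, against 7.82%. Il18 AJ222813_s_at was higher by 1.33 (SE 0.308) and Cd74 X14254cds_g_at by 2.11 (SE 0.677), and neither passed in limma. No p-value is given for them and nothing is read from this, since the selection used these 2 hr arrays. C3 M29866_s_at was higher by 1.10 (SE 0.735), but its difference was -0.27 without 1 hr replicate 1. In 1 hr against control, which shares the controls, 9 of the 12 were positive and 3 negative, with a median of 0.19 beside 0.05 over all probe sets. There 2 probe sets, of Itgam and Cd74, were higher without overlap, against 7.54% of all tested, and 0 were lower, against 5.11%. The smallest unadjusted p of limma among the 12 was 0.0529, for Itgam, with 2 of 3 controls at the floor. These controls entered the selection, so nothing is read from this p-value.

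Ordered by group mean on the log2 scale, C3 M29866_s_at, Cd74 X13044_at, Cd74 X13044_g_at, Cd74 X14254cds_g_at and Il18 AJ222813_s_at were lowest in controls, intermediate after 1 hr and highest after 2 hr. For each of these 5 the gap between the 2 arrays at 1 hr exceeded the distance of their mean from the control mean, so the first step of that order does not hold beyond the spread. For Itgam, Cd74 X14254cds_at, Il18 U77777_s_at and B2m the 1 hr mean was the highest, and for C3 X52477_at it was the lowest. C1qb had its lowest mean after 1 hr on both probe sets, and its neighbours in the order differed by less than the spread between arrays.

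**Figure D3:**
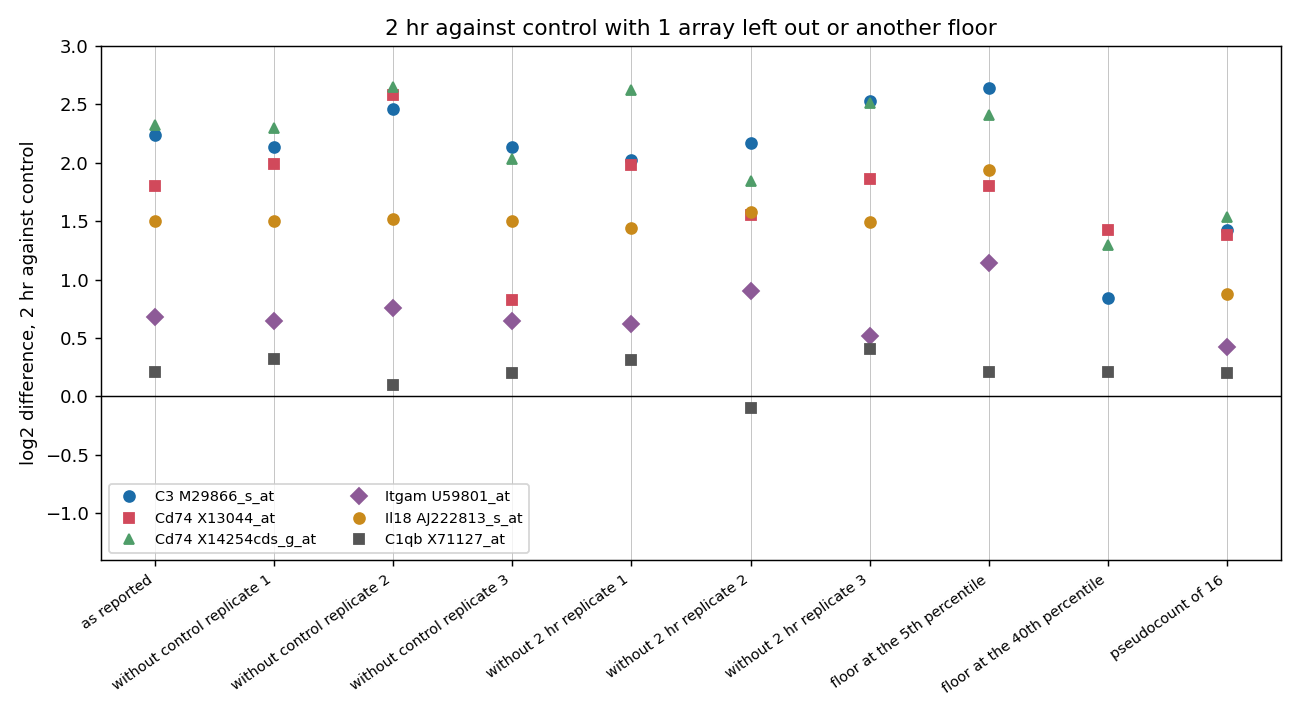
Log2 difference of 2 hr against control for 6 probe sets as reported, with each control or 2 hr array left out, and with other floors. Cd74 X13044_at drops to 0.83 without control replicate 3, C1qb X71127_at reaches -0.10 without 2 hr replicate 2, and C3 M29866_s_at drops to 0.84 under the 40th percentile floor, where Itgam and Il18 have no value.

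Complement genes beside C3 and C1qb were on the array in 20 of 38 listed cases, and 17 were tested. After 2 hr 5 were above and 12 below control, 0 passed in limma, and the median log2 difference was -0.10. C4bpb and Serping1, inhibitors of the early cascade, differed by 0.55 (SE 0.431) and 0.58 (SE 0.457). Cd55, which encodes a membrane inhibitor of the C3 convertases, differed by -0.81 (SE 0.662) and C8b, a chain of the terminal complex, by -0.73 (SE 0.540). Clu, or clusterin, an abundant astrocyte product that binds the terminal complex, read 5237.2, 1324.9 and 5734.9 after 2 hr, against 7244.2, 4086.1 and 1936.3 in controls. C5ar1, a receptor for a fragment of C5, read 151.1 to 196.5 after 2 hr, against 166.1 to 223 in controls. After 1 hr 8 were above and 9 below control, with a median of -0.11.

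Microglia and macrophage markers beside the 6 genes gave 20 tested genes, with 12 above and 8 below control after 2 hr, a median log2 difference of 0.04 and 0 that passed in limma. Cd53, a tetraspanin of white blood cells and microglia, read 30.6, 32.6 and 30.2 after 2 hr, against 23.4, 16.6 and 16.6 in controls, a difference of 0.74 (SE 0.398) without overlap. Cd4 differed by 0.79 (SE 0.568), Grn, the progranulin gene, by 0.54 (SE 0.327), and Irf8, a transcription factor of microglia, by -0.74 (SE 0.435). Ctss, the protease that trims the invariant chain, read 1526.9, 1752.1 and 973.4 after 2 hr, against 1494, 1246.4 and 2440.9 in controls. After 1 hr 10 were above and 10 below control, with a median of 0.00 to 2 decimals. Ctss stands on the class II list too and C1qc on both the complement and the microglia list.

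**Figure D4:**
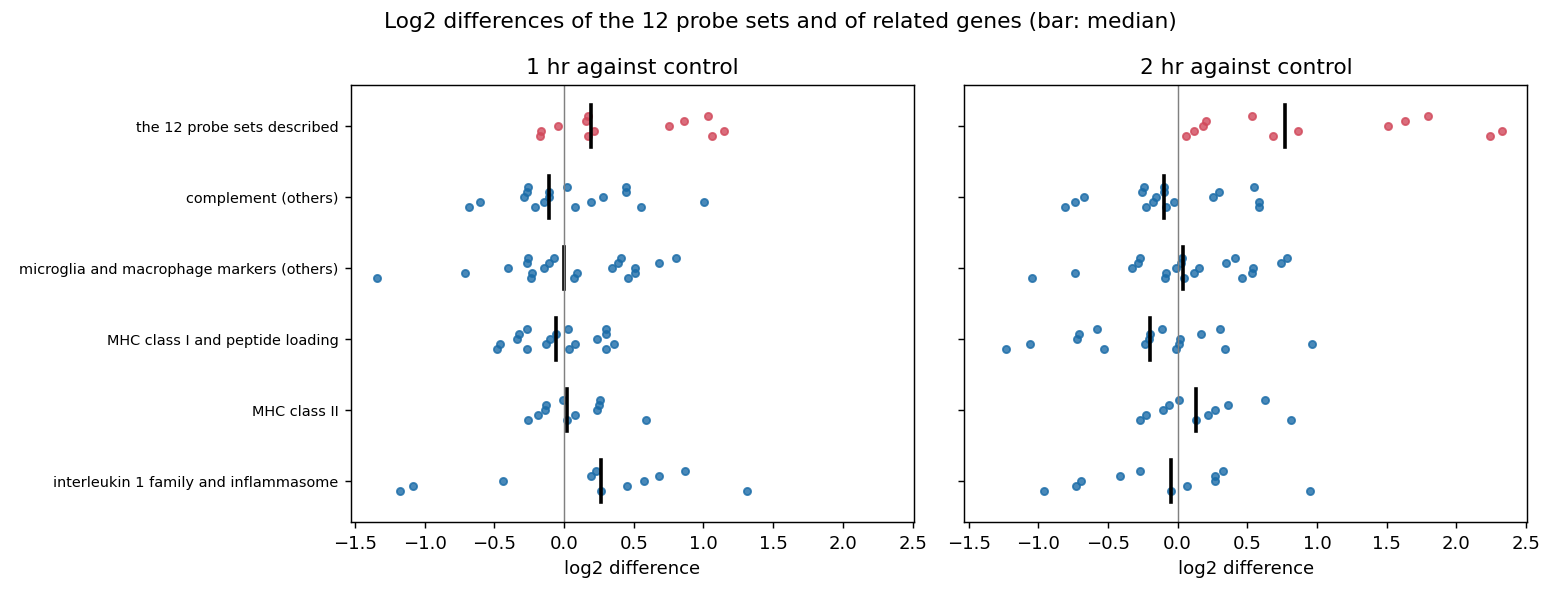
Log2 differences after 1 hr and after 2 hr against control for the 12 probe sets (top row) and for the related genes of 5 lists, 1 point per probe set or gene with the median as a bar. At 2 hr the 12 probe sets, selected on this comparison, lie above 0, and the medians of the 5 lists lie between -0.20 and 0.13.

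Markers of other tissues that carry these transcripts were read beside them. In whole brain RNA fewer cells of a type and less RNA per cell cannot be told apart. The summed intensity of the 9 microglia and macrophage markers was 1560.8 to 2697.9 after 2 hr, against 2001.7 to 3520 in controls. Ctss alone gave 973.4 of the 1560.8 and 2440.9 of the 3520, so the sum is mostly a reading of 1 gene. Of the 9 markers 4 were above and 5 below control after 2 hr, with a median log2 difference of -0.09. The 15 blood cell markers summed to 313.6 to 660.9 after 2 hr, against 371.8 to 1018.9 in controls. The beta globin gene Hbb read 25.2, 100.9 and 138.1 after 2 hr, against 28.1, 191.7 and 267.1 in controls. Of the 15 blood cell markers 6 were above the floor on all arrays. Among T cell markers Cd3d was near background on 6 of 8 arrays and Cd3g on 1, while Cd5 read 10.5 to 27.8 and Cd8b 28.3 to 85.7 over the 8 arrays. S100a9, a marker of neutrophils, was near background on 6 of 8. Other neutrophil genes of the list reached higher, with S100a8 at 1.9 to 25.8, Defa5 at 3.2 to 41.1 and RatNP-3b at 2.6 to 21.8. The T cell marker Cd8a read 3.5 to 27.3, with the highest value on 2 hr replicate 2. The 16 endothelial and mural markers summed to 2101.5 to 2546 after 2 hr, against 1105.5 to 1947.5 in controls, without overlap. Slc2a1, the glucose transporter of brain endothelium, read 1080.1, 996.8 and 1340.2 after 2 hr, against 827.6, 805.2 and 273.9 in controls. Without it, a choice made after its values were seen, the sums were 876.8 to 1549.2 after 2 hr, against 831.6 to 1142.3 in controls, and overlapped. Of the 16 markers 9 were above and 7 below control, with a median log2 difference of 0.11. The 13 meningeal and fibroblast markers summed to 7030.3 to 21508.5 after 2 hr, against 11324.6 to 14685 in controls. Sparc alone gave 15084.4 of the 21508.5, 2000.2 of the 7030.3 and 10434.2 of the 14685. Of the 13 markers 9 were above and 4 below control after 2 hr, with a median log2 difference of 0.22. The part of these cells in the readings was not tested.

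The probe sets most like each gene over the 8 arrays were looked up for the 3 genes whose brightest probe set was above the floor on every array. For C1qb they were RT1-A, a class I heavy chain gene, with a Pearson correlation of log2 values of 0.950, Arhgef7 with 0.935 and Phgdh with 0.935. The Arhgef7 probe set was near background on 6 of 8 arrays, so its likeness rests on the other 2. For Cd74 they were Plod1 (0.968), Mobp (0.963) and Evl (0.959), each of which had its lowest reading on control replicate 3, at 10.9, 53.1 and 107.8. A brighter Mobp probe set, D28111_g_at, read 1169 on that array and was lowest on 2 hr replicate 3, at 1084.2. For B2m they were Ube2q2 (0.956), A2m (0.949) and Prkaa1 (0.945). Each is the highest among the named probe sets tested over 8 arrays that share scaling and array quality, and is given as a description.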

How the data were processed

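Whole brain RNA of 8 samples had been hybridised to 1 array each. The authors deposited 1 intensity per probe set, 8799 per array, on a linear scale. Software and scaling target were not given in the sources used here. On each array the 2% trimmed mean lay between 150.2 and 150.3, so the intensities were used as deposited. The 59 control probe sets were left out, values were floored at the 20th percentile and log2 was taken, and probe sets above the floor on at least 2 arrays were kept, which left 7770. At most 70 values were identical between 2 arrays. Names came from the platform's annotation, with 7006 probe sets carrying 1 symbol, 308 several and 1426 none, and 6985 were updated through RefSeq (GRCr8).

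Group means were compared with limma 3.58.1 in R 4.3.3 (lmFit, contrasts.fit, eBayes with an intensity trend, 1 shared spread over all 8 arrays), two-sided, with Benjamini-Hochberg adjustment over all probe sets. The steps were tested on simulated data with large planted shifts and no floor, which does not cover small differences of dim genes. The floor can shift log2 differences of dim genes in either direction, and the number of arrays limits the precision. Under the 5th percentile floor the 2 hr difference of C3 M29866_s_at was 2.64 in place of 2.24. That of Il18 U77777_s_at after 1 hr was 0.11 in place of 0.16. The 6 genes and the lists of related genes were chosen with earlier results of these data known. For each list every tested gene was counted on its brightest probe set, and up to 4 genes per comparison by smallest unadjusted p and up to 4 by intensity could be named. For the likeness the 3 highest correlations per gene were taken. Itgb2, Cx3cr1, Aif1, RT1-CE12, RT1-CE16 and the tissue markers were named for their known role, outside the rule or after their values were seen. Alternatives were median centring, quantile normalization, a floor at the 5th or the 40th percentile, 16 added in place of a floor, no filter, a strict filter (above the floor on at least 6 arrays), no trend, 3 kinds of block, and left out arrays.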

Additional observations from a re-analysis of the deposited data

How the results depend on the processing

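The count of 0 probe sets passing limma's test held in each of the 3 comparisons under every alternative run, except the fit without a filter on low values. There 4 probe sets passed in 1 hr against control, the same 4 in 2 hr against 1 hr and 0 in 2 hr against control. None of them was among the 12. These 4 were above the floor on only 2 or 3 arrays, and all had been tested with the filter too. Over the alternatives the 12 probe sets kept the sign of their difference in 226 of 235 values for 2 hr against control, 213 of 235 for 1 hr against control and 218 of 235 for 2 hr against 1 hr. In 7, 5 and 4 of these values the difference moved by more than 1 replicate SD. Several alternatives cannot alter a difference, such as no trend or leaving out an array of the group not compared. The counts therefore overstate how steady the values are, and the genes were selected on 2 hr against control. No p-value of the 12 is given for these alternatives. Some leave 1 array at 1 hr, and the 2 hr arrays are those the genes were selected on. Whether the replicate numbers of the titles pair the samples cannot be told. Deviations from the group means correlated from -0.33 to 0.29 between same-numbered arrays and from -0.36 to 0.40 between differently numbered ones. In groups this small such deviations are tied to one another. With the replicate block 0 probe sets passed in any comparison, C3 M29866_s_at differed by 2.24 after 2 hr and by 0.95 after 1 hr, and Cd74 X13044_at by 0.54 after 1 hr. The 2 hr value cannot move under this block, since controls and 2 hr arrays hold the same replicate numbers. No value is given for probe sets that a higher floor or the strict filter removed. With 2 arrays in the 1 hr group, either array decides its values: Il18 U77777_s_at against control was -1.34 without 1 hr replicate 1 and 1.65 without 1 hr replicate 2. The cause was not tested.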
